A study of Drosophila melanogaster with 3 samples.

Results

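Of the 3747 reproducible CG9609-GFP peaks, 471 (12.6%) had their summit deep inside the introns of protein-coding genes away from the X chromosome. Within that reproducible set they were chosen by position, with earlier results of these data known. The summit had to lie on a chromosome other than X, more than 2000 bp from the start site (TSS) of every protein-coding transcript, inside the body of a protein-coding gene and outside every annotated exon. The position rule used no signal value, replicate or base of sequence. The reproducible set it was applied to was itself derived from the 3 replicate lists and a pooled list, so replicate agreement entered there. The annotation placed all 471 summits in an intron of a coding transcript of the host gene, so the name distal intronic peak holds for each of them. The peaks came from chromatin immunoprecipitation followed by sequencing (ChIP-seq) of whole Drosophila melanogaster embryos aged 0 to 24 h, males and females together, of a stable transgenic line in which CG9609 carries GFP at its C-terminal end. The chromatin was pulled down with an antibody against GFP. The 3 biological replicates form 1 group, CG9609-GFP, with no other genotype, stage or treatment, so values are compared between replicates and between classes of peak. A signal from whole embryos pools all cell types, and what was precipitated is the tagged protein, not the native one.

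An intron of a fly gene can hold regulatory DNA as well as spliced-out sequence. Enhancers, short stretches bound by transcription factors, often lie in long introns of developmental genes and act on a promoter of the same gene or of a neighbour. DNA rich in A and T is known to take up nucleosomes less readily than DNA rich in G and C. CG9609 itself is encoded on the X chromosome, and the reference annotation calls it an uncharacterized protein.

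The sequence at the summit is shown for the 8 strongest of these peaks that lay on 2L, 3L or 3R, because base composition was the property that set the peaks apart from their surroundings. Each is the 101 bases centred on the summit, on the forward strand of the RefSeq release 6 genome, the assembly of dm6. Capitals mark runs of 8 or more A or T bases. The last line is the window centred 300 bp from the summit of the strongest peak, for comparison.
CG32486, chr3L:3060764-3060864: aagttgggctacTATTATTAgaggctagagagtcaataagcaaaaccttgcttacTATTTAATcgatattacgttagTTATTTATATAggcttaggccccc
CG32264, chr3L:3785198-3785298: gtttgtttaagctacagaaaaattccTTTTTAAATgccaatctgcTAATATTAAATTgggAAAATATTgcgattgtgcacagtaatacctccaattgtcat
Gug, chr3L:8458278-8458378: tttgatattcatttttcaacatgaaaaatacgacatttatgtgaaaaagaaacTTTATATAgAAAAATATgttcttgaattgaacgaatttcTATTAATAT
upSET, chr3L:14005032-14005132: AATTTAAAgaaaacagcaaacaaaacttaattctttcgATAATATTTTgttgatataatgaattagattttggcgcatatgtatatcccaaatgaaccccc
aos/CG33158, chr3L:16480526-16480626: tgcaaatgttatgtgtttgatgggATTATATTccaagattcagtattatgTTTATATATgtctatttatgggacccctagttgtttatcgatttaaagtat
JIL-1, chr3L:11084733-11084833: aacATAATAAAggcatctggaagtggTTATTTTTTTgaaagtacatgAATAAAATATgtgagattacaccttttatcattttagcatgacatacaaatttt
beat-Ib, chr2L:15911226-15911326: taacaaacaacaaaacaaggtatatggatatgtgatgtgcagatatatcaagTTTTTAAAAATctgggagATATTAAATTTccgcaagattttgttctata
Su(Tpl)/Mi-2, chr3L:19903240-19903340: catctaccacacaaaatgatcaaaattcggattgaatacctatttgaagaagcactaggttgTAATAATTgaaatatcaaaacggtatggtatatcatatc
CG32486 flank, chr3L:3061064-3061164: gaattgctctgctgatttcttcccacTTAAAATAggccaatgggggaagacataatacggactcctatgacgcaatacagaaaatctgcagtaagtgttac
All 8 summit windows held at least 1 such run, and the longest run in them measured between 8 and 12 bases. G+C content ranged between 19.8% in Gug and 35.6% in CG32486, whose flank window held 41.6%.

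The strongest distal intronic peak lay in the first intron of CG32486, with a deposited signal of 774 and rank 57 of 3747 in the reproducible set. Its ranks in the lists of replicates 1, 2 and 3 were 46, 62 and 63, and its signals there were 236, 232 and 309. The next lay within Hr3, which encodes a nuclear receptor of the ecdysone cascade, and within the overlapping genes CG46321 and CG12912. That peak ranked 172, 144 and 122 in the replicates. The third lay in CG32264 and ranked 125, 150 and 162. All 3 peaks stood among the 200 strongest regions of every replicate.

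The next peaks are given by host gene. Gug encodes the corepressor Atrophin, and its peak ranked 244, 149 and 139 in replicates 1, 2 and 3. upSET encodes a chromatin protein with a SET domain, and its peak ranked 159, 145 and 251. JIL-1 encodes a kinase of histone H3, and its peak ranked 321, 177 and 161. The peak shared by Su(Tpl), a transcription elongation factor gene, and Mi-2, a nucleosome remodeller gene, ranked 243, 232 and 227. gpp encodes the histone H3 lysine methyltransferase Dot1 of the fly, and its peak ranked 265, 271 and 398. Replicate 1 gave the weakest rank of the 3 for Gug, JIL-1 and the Su(Tpl) and Mi-2 peak, and replicate 3 for upSET and gpp.

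Of the other hosts, aos encodes a secreted inhibitor of the EGF receptor, and the peak it shares with CG33158 ranked 303, 161 and 128. aop encodes an Ets-family repressor that acts below receptor tyrosine kinases, and its peak ranked 290, 180 and 305. fz encodes a Wnt and planar polarity receptor, and its peak, 25299 bp from the nearest coding TSS, ranked 201, 380 and 334. ImpL2 encodes a secreted insulin-binding protein, and its peak ranked 192 in replicate 1 and 311 in both others. The remaining 3 of the 15 lay in CG12769, in beat-Ib, a gene for an immunoglobulin-family surface protein, and in the kinase gene Pak3.

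**Figure D1:**
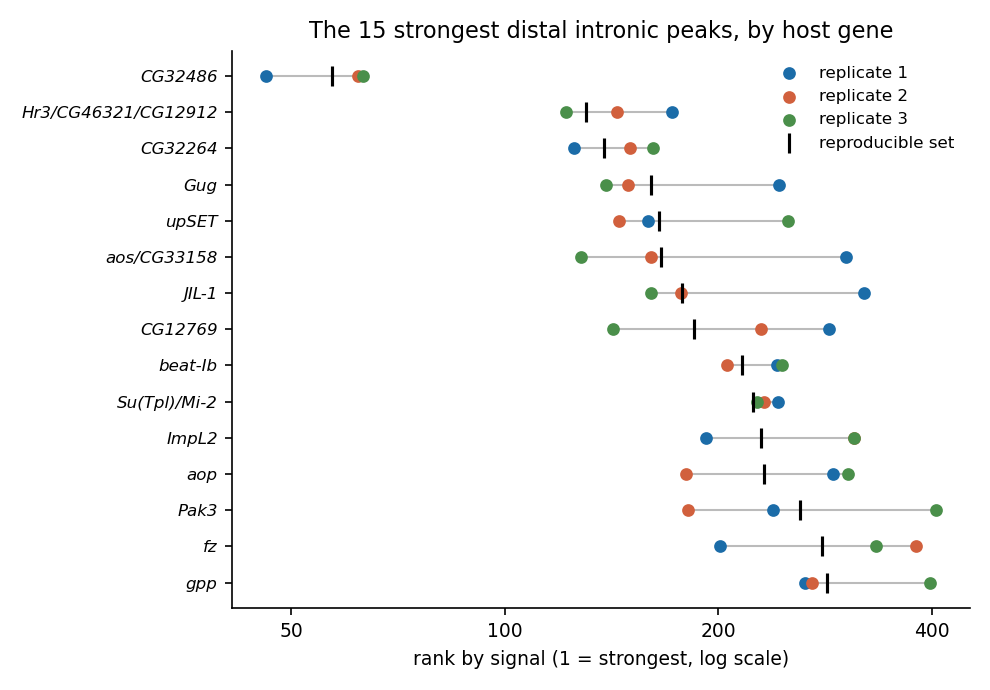
Rank by signal (x axis, log scale, 1 is the strongest) of the 15 strongest distal intronic peaks, labelled by host gene, in each replicate (circles) and in the reproducible set (bars). The CG32486 peak ranks between 46 and 63 everywhere, and replicate order changes with the peak.

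Distal intronic peaks were weaker than promoter peaks. Their median signal was 133 (quartiles 107 and 185, range 90.03 to 774), against 150 for the 1682 promoter peaks off the X, whose summits lay within 500 bp of a coding TSS. It was 130 for the 322 distal peaks off the X outside coding genes. Of the distal intronic peaks, 208 (44.2%) exceeded the median of the whole set, against 901 promoter peaks (53.6%), an odds ratio of 0.686 (two-sided Fisher's exact test, adjusted p = 0.000636 over 2 comparisons). Against the distal peaks outside coding genes, of which 138 (42.9%) exceeded it, the odds ratio was 1.05 (Fisher's exact adjusted p = 0.771). Among the 100, 500 and 1000 strongest peaks of the set, 1, 30 and 89 were distal intronic. The difference from promoter peaks depended on which peaks were kept: among peaks found in all 3 replicates the odds ratio was 1.02 (Fisher's exact adjusted p = 1), and in peaks supported by the pairs that leave out replicate 2 or 3 it was 0.785 and 0.971 (adjusted p = 0.250 and 0.875). Since peaks of the same libraries are not independent, p-values over peaks describe this set of regions, not the spread between embryo collections.

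They were found less often among the strongest regions of all 3 replicates. A peak was counted as found in a replicate when that list had, in its 3747 strongest regions, a summit no more than 100 bp away. In all 3 replicates 221 distal intronic peaks (46.9%) were found, where 55.4 percent of all reproducible peaks were. A further 161 were found in 2 replicates, 78 in 1 and 11 in none. The share found in all 3 was 58.1% for promoter peaks (odds ratio 0.636, Fisher's exact adjusted p = 3.29e-05) and 52.5% for distal peaks outside coding genes (odds ratio 0.800, adjusted p = 0.129). Replicates 1, 2 and 3 held 66.2%, 76.4% and 83.0% of them, a mean of 75.2% ± 8.45 (SD, n = 3), against 75.3%, 82.7% and 83.5% of promoter peaks. Anywhere in the whole replicate lists, 91.9%, 97.2% and 97.7% of the distal intronic peaks had a match, against 92.7%, 96.3% and 97.1% of promoter peaks. Of the 161 found in 2 replicates, 88 were missing from replicate 1, 40 from replicate 2 and 33 from replicate 3. Without replicate 1 the difference from promoter peaks in this support no longer passed the threshold (odds ratio 0.800, Fisher's exact adjusted p = 0.0954), nor did it among the stronger peaks of the set (0.853, adjusted p = 0.534). Signals of distal intronic peaks listed in a pair of replicates had a Spearman rank correlation of 0.627 in replicates 1 and 2 (420 peaks), 0.573 in 1 and 3 (423 peaks) and 0.643 in 2 and 3 (448 peaks). The same 3 pairs gave 0.736, 0.709 and 0.748 for promoter peaks. These correlations are across peaks of the same libraries.

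The 471 peaks spread over the 4 large autosome arms, with 111 on 2L, 102 on 2R, 120 on 3L and 138 on 3R, and none on chromosome 4 or Y. Bases that meet the position rule, called eligible here, make up 32.4 Mb (28.4%) of the sequence off the X, which gives 14.5 peaks per Mb of eligible intron. The arms 2L, 2R, 3L and 3R had 17.9, 15.4, 15.7 and 12.9 per Mb. The distance to the nearest coding TSS had a median of 5319 bp and quartiles of 3366 and 9835 bp, with a range of 2003 to 76875 bp. Density per eligible Mb was 24.2 between 2 and 5 kb, 17.9 between 5 and 10 kb, 11.7 between 10 and 20 kb, and 4.08 beyond 20 kb. Part of this fall was shared by weak regions. Beyond 20 kb lay 28.0% of eligible bases and 7.86% of the distal intronic peaks. Of the regions meeting the rule among each replicate's 3747 weakest, 17.4%, 16.6% and 10.9% lay there in replicates 1, 2 and 3. Median signal of the distal intronic peaks stayed between 125 and 139 across those 4 bins. The nearest coding TSS belonged to a host gene for 364 peaks (77.3%). Near the limit of the rule, the 51 peaks at 2001 to 2500 bp had a median signal of 143, and the 68 intronic peaks at 1501 to 2000 bp, which the rule left out, had 132. Another 13 of the 471 lay within 500 bp of a TSS of a non-coding gene, among them the peaks in ena, Hipk, puc and osa.

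Regions that met the rule were rarer among each replicate's strongest regions than among its weakest. The 3747 strongest regions of replicates 1, 2 and 3 held 475, 453 and 522 of them, 12.9% ± 0.94, and the 3747 weakest held 812, 781 and 741, 20.8% ± 0.95 (SD, n = 3 each). The 2 sets of values did not overlap, and the exact two-sided permutation test gave p = 0.1, the smallest that 3 against 3 unpaired values allow. That test did not pair the 2 values of a replicate, although both come from the same list.

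First introns held most of the peaks. Of the 471, 289 (61.4%) lay in the first intron of at least 1 coding transcript, whereas first introns make up 36.0% of the eligible bases. The introns were long, with a median of 14.6 kb and quartiles of 7.54 and 26.7 kb. Among regions that met the rule, 57.5%, 60.7% and 62.6% of the strongest lay in a first intron in replicates 1, 2 and 3, against 42.2%, 44.7% and 46.8% of the weakest. The odds ratios were 1.85, 1.91 and 1.90 (two-sided Fisher's exact tests, adjusted p = 1.38e-07, 1.07e-07 and 1.07e-07 over 3 tests). Over replicates the shares were 60.3% ± 2.61 and 44.6% ± 2.30 (SD, n = 3 each). The exact permutation test, again not paired by replicate, gave p = 0.1, the smallest possible for it. Distance to the TSS moved with this result: 46.1% of distal intronic peaks lay within 5 kb, against 32.3%, 32.5% and 38.1% of the weakest regions in replicates 1, 2 and 3, and its part in the result was not tested. With the canonical transcripts alone the odds ratios were 1.43, 1.47 and 1.65 (Fisher's exact adjusted p = 0.00383, 0.00242 and 9.12e-05).

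**Figure D2:**
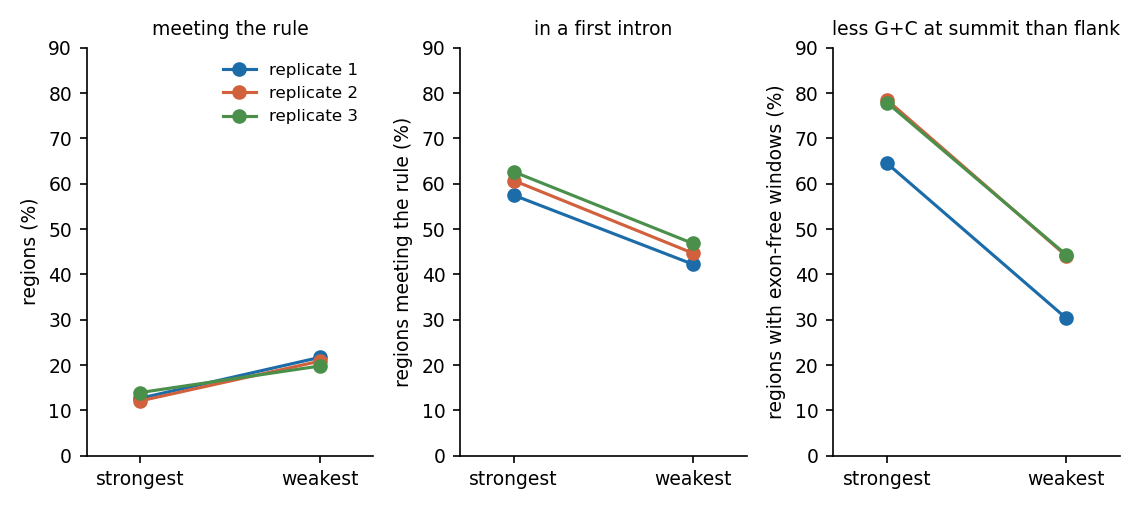
Shares in the 3747 strongest (left) and 3747 weakest regions (right) of each replicate, 1 line per replicate: regions that meet the rule, those of them in a first intron, and those with less G+C at the summit than in the flank where both windows hold no exon base. In every replicate the first share is lower, and both others are higher, in the strongest regions.

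The summits were poor in G and C. The median G+C content of the 101 bases at the summit was 33.7% (quartiles 29.7 and 38.6%), against 44.6% in a window of the same length centred 300 bp away on a random side. G+C was lower at the summit than in the flank for 376 peaks and higher for 90, so 80.7% of the untied peaks had the lower value at the summit (exact two-sided binomial test, p = 1.33e-42). That test leans towards a lower summit, because the rule keeps summits out of exons and lets the flank reach into one, and exons are richer in G and C. On random positions that meet the rule it called too many differences, and with exon-free windows it called about as many as its threshold allows. The comparison was therefore repeated on the 458 peaks with no exon base in either window, a restriction chosen after the data were seen. The share was then 80.6% (366 lower, 88 higher, exact binomial p = 2.41e-41), with medians of 33.7% at the summit and 44.6% in the flank. A comparison that uses no flank gave the same direction: 373 of the 471 summits lay below 40.6%, the median of 309055 eligible intron windows of 101 bp.

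Averaged over the 471 peaks, the low G+C formed a narrow trough. It reached 34.0% in the 20 bp bin centred at -10 bp and was more than 3 points below the outer mean between -50 and 50 bp. G+C was above the outer level on both sides, with 45.1% at -270 bp and 45.2% at 250 bp, and the bins 500 to 1000 bp out averaged 40.5%. Measured from its own outer mean, the trough was 6.47 points deep. Promoter peaks had a wider trough, 8.51 points deep, with its lowest bin, 37.5%, at -70 bp and an outer mean of 45.98%. Distal peaks outside coding genes ran close to the distal intronic ones, with a lowest bin of 35.2% at 10 bp.

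**Figure D3:**
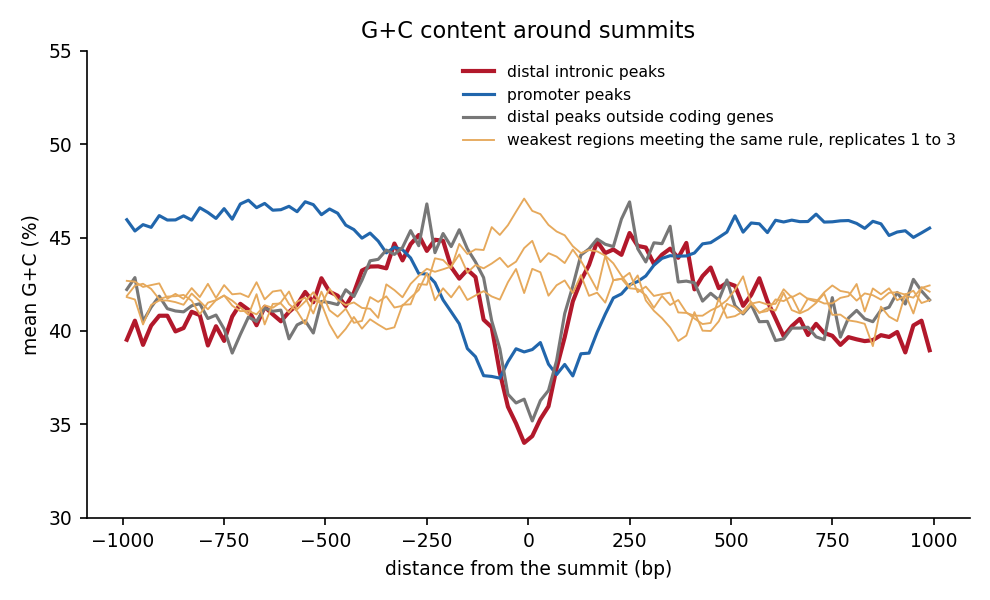
Mean G+C content (y axis, percent, in 20 bp bins) against distance from the summit (x axis, bp) for distal intronic peaks, promoter peaks, distal peaks outside coding genes, and the weakest regions of each replicate that meet the same rule. The distal intronic line falls to 34.0% next to the summit, while the lines of the weakest regions show no trough.

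Lower G+C at the summit than in the flank prevailed in the strong regions of each replicate and not in the weak ones. With exon-free windows, 64.5%, 78.5% and 77.9% of the strongest regions that met the rule had less G+C at the summit than in the flank in replicates 1, 2 and 3, against 30.4%, 44.1% and 44.4% of the weakest. The odds ratios were 4.17, 4.62 and 4.42 (Fisher's exact tests added after the data were seen, adjusted p = 7.38e-30, 5.08e-30 and 2.30e-30 over 5 tests). Among those weakest regions, G+C was higher at the summit in 500, 376 and 360, and lower in 218, 297 and 287. Exact binomial tests, also added later, gave p = 2.22e-26, 0.00262 and 0.00461. The odds ratios thus set strong summits poorer than their flanks against weak summits more often richer than theirs. Over replicates, without the exon-free restriction, the shares with less G+C at the summit were 73.4% ± 8.11 and 41.7% ± 8.68 (SD, n = 3 each). The exact permutation test on them, not paired by replicate, gave p = 0.1, the smallest possible for it. Replicate 1 stood apart, with a median summit G+C of 37.6% in its strongest regions, against 33.7% in those of both other replicates, and 46.5% in its weakest. In the same exon-free comparison the share was 80.6% for distal intronic peaks and 57.1% for promoter peaks (odds ratio 3.12, Fisher's exact adjusted p = 7.04e-12). It was 75.2% for distal peaks outside coding genes (odds ratio 1.37, Fisher's exact adjusted p = 0.0896). Only 309 of the 1682 promoter peaks had exon-free windows, against 458 of 471 distal intronic ones. The flank also differed between these classes. Over all peaks, mean G+C at -290 and 290 bp was 44.6% and 44.5% for distal intronic peaks, above their outer mean of 40.5%. For promoter peaks it was 43.9% and 42.9%, below their outer mean of 45.98%.

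Runs and short words of A and T were also found in more summits than flanks. How far base composition accounts for them was not tested. A run of 10 or more A or T bases stood in 212 summit windows and 136 flank windows, and in the exon-free peaks in 210 and 135 (exact McNemar test added after the data were seen, 148 against 73 discordant peaks, p = 5.05e-07). All 36 words of 6 letters made only of A and T were found in more summits than flanks. The 20 motifs tested were chosen with earlier results of these data known, so their tests here and below are not independent of the data. Among these 20 motifs, given with both strands searched, 1 was more frequent at the summit: the TATA box, TATAAA, in 83 summits and 41 flanks (exact McNemar test, adjusted p = 0.000931). It stood in 17.6% of the summits, against 13.0% of all eligible intron windows of that length. It ranked 8 among the 36 A and T words, so it did not stand apart from them.

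Another 3 motifs were less frequent at the summit. GAGAG, the core of sites for GAGA factor, was in 54 summits and 86 flanks (exact McNemar adjusted p = 0.0369) and in 11.3% of eligible windows. GCCAT, the core of Pleiohomeotic sites, was in 55 and 84 (exact McNemar adjusted p = 0.0407) and in 20.04% of eligible windows. CACACACA was in 5 and 26 (exact McNemar adjusted p = 0.00192) and in 2.52% of eligible windows. The AP-1 motif TGANTCA, in 20 summits and 7 flanks and 2.05% of eligible windows, and the core promoter motif GGTATTT, in 18 and 6 and 1.81%, did not pass (exact McNemar adjusted p = 0.0755 each), and with exon-free windows GGTATTT did (18 and 5, adjusted p = 0.0425). Every one of the 4 called motifs lost its call in some reduced set of peaks. GAGAG also lost it with the flank centred 500 bp away (exact McNemar adjusted p = 0.705) and with windows of 100 bp either side (0.102), and stood in 11.5% of summits, against 11.3% of eligible windows. None of the 10 best words of 8 bases, chosen in odd-ranked peaks, was called in even-ranked ones by the exact McNemar test, and 0 of them had an unadjusted p under 0.05. None of the 10 best words of promoter peaks was called in the distal intronic peaks, where 1 had an unadjusted p under 0.05. A motif match describes the letters in a window and is not a binding site.

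The windows of the next 4 strongest distal intronic peaks on 2L, 3L or 3R, beyond the first set, that hold TATAAA on either strand are shown because it was the motif called higher. Capitals again mark runs of 8 or more A or T bases, on the forward strand of the RefSeq release 6 genome.
CG3764, chr3L:17004358-17004458: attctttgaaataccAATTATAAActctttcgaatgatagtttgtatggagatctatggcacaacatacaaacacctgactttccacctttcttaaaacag
Lrch, chr2L:17379071-17379171: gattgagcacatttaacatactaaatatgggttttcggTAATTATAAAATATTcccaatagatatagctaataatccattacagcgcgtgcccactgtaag
sick, chr2L:19941473-19941573: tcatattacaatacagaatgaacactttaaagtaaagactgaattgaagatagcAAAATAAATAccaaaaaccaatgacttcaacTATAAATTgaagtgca
eIF4EHP, chr3R:24099109-24099209: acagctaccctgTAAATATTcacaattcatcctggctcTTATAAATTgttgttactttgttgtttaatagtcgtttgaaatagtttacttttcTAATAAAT
In each of them the TATAAA letters lie inside a longer A and T run, the longest of which measured 15 bases, in Lrch.

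Several motifs of core promoters were rarer than at promoter peaks. These come from the same list of motifs, chosen with earlier results of these data known. The DREF element TATCGATA was in 1 of 471 distal intronic summits (0.212%), against 90 of 1682 promoter summits (5.35%), with an odds ratio of 0.0376 (Fisher's exact adjusted p = 2.21e-07 over 40 tests). GGTCACAC, the motif of M1BP, was in 1, against 45 promoter summits (Fisher's exact adjusted p = 0.00218). CATCNCTA, known as Ohler motif 7, was in 3, against 84 (Fisher's exact adjusted p = 3.57e-05), and the E-box CAGCTG in 11, against 120 (adjusted p = 0.000577). In eligible windows they stood in 0.185%, 0.141%, 0.538% and 3.66%. The core promoter motif GGTATTT was not called, with 18 distal intronic summits (3.82%), against 65 promoter summits (3.86%; odds ratio 0.988, Fisher's exact adjusted p = 1). The DREF element was called under every alternative run. The calls for GGTCACAC and CAGCTG were lost with windows of 25 bp either side (Fisher's exact adjusted p = 0.0994 and 0.306), in the replicate consensus (0.503 and 0.563), among the stronger peaks (0.760 and 0.587) and on leaving out any replicate (0.178 to 0.326 and 0.136 to 0.198). GGTCACAC lost its call at 5000 bp from a TSS as well (0.138), and CATCNCTA with windows of 25 bp either side (0.0809). Against distal peaks outside coding genes none of the 20 motifs differed by Fisher's exact test, and 0 had an unadjusted p under 0.05.

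The peaks fell in 292 host genes, of which 175 held 1, 69 held 2 and 48 held 3 or more. sbb, the gene of a transcriptional corepressor also called brakeless, held 10 peaks between 3.08 and 49.8 kb from its 5′ end, the strongest at rank 1268 of the set. ush, which encodes a cofactor of GATA factors, and Eip75B, which encodes the ecdysone-inducible nuclear receptor E75, held 6 each. msn, a kinase gene of the JNK pathway, and tara held 5 each. Another 17 genes held 4, among them gpp and Hr3, whose peaks are the same 4 as those of CG12912. Of all distal intronic peaks, 154 (32.7%) had another one within 5 kb. No share for other positions was computed beside this count, which includes overlapping regions such as the 2 in Wwox.

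**Figure D4:**
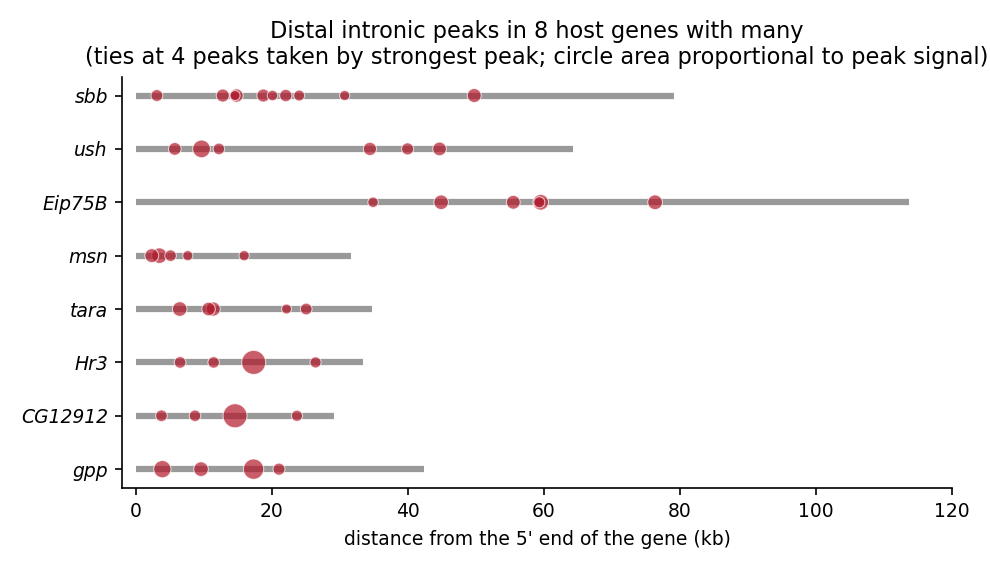
Position of distal intronic peaks (circles, area proportional to signal) along 8 of the host genes with the most of them (17 genes are tied at 4 peaks, of which those 3 with the strongest peaks are drawn), by distance from the gene's 5′ end in kb (grey bars are gene lengths). The 10 peaks of sbb lie between 3.08 and 49.8 kb, and the 4 of Hr3 and CG12912 are the same peaks, since those genes overlap.

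Genes with at least 1 kb of eligible intron numbered 1932 off the X, and 14.96 percent of them (289) hosted a peak, with 14.8 gene and peak pairs per Mb. Hosts had more room, with a median of 17.9 kb of eligible intron, against 7.03 kb for all genes tested. With the genes cut into 4 equal groups by eligible intron, shortest first, 2.69%, 9.11%, 19.3% and 28.8% hosted a peak. Density in these groups was 18.3, 25.5, 22.7 and 11.9 per Mb. Counts for gene lists are given beside this background and were not tested. The lists overlap, with Mef2, pnt, Eip93F and jing each a host in more than 1, so their shares are not separate observations. The lists were chosen with earlier results of these data known, so their shares are not independent of the data. In the ecdysone response list, 10 of 14 genes hosted a peak, at 54.2 per Mb. Their strongest were in Hr3 (rank 130 in the set), ImpL2 (230) and EcR (419), the gene of the ecdysone receptor. In the chromatin regulator list it was 8 of 14 at 91.0 per Mb, led by Mi-2 (224), trx (306), which encodes a histone H3 methyltransferase, and the demethylase gene Kdm4B (675). Both shares, 71.4% and 57.1%, were above the background share. The median ecdysone gene had 25.4 kb of eligible intron and the median chromatin gene 4.36 kb. Of all genes in the groups that hold those medians, 28.8% and 9.11% hosted a peak. The chromatin genes that hosted one had between 3.01 kb (Kdm2) and 93.0 kb (jing), so they spread over groups with other shares.

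Of 44 signalling genes, 20 hosted a peak, at 42.1 per Mb, led by aos (166), fz (280) and mam (317), the gene of the Notch coactivator Mastermind. Of 76 developmental transcription factor genes, 24 did, at 36.1 per Mb, led by aop (232), ush (537) and ken (732). Of 15 muscle genes, 3 did, namely Mef2 (969), how (1507) and mbc (2367). Mef2, with 4 of the 6 peaks in muscle genes, is also in the developmental transcription factor list. The shares of both larger lists, 45.5% and 31.6%, were above the background share. Their median genes had 14.2 and 14.3 kb of eligible intron, in the group of genes of which 19.3% hosted a peak. The muscle genes, 3 of 15, were close to the 19.3% of all genes with between 7.03 and 18.7 kb of eligible intron, the range that holds the median muscle gene (10.7 kb).

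The adhesion and axon guidance list and the ion channel list were at or below the background share. Of 67 cell adhesion and axon guidance genes, 10 hosted a peak, at 7.56 per Mb, led by ena (554), ed (582) and Fas3 (643). Of 41 ion channel and excitability genes, 1 did, Ih (3319), at 1.02 per Mb. No cytoplasmic ribosomal protein gene had 1 kb of eligible intron. The median adhesion gene had 27.9 kb of eligible intron and the median ion channel gene 11.7 kb. Of all genes in the groups that hold those medians, 28.8% and 19.3% hosted a peak. The part of intron length in the order of the lists was not tested.

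**Figure D5:**
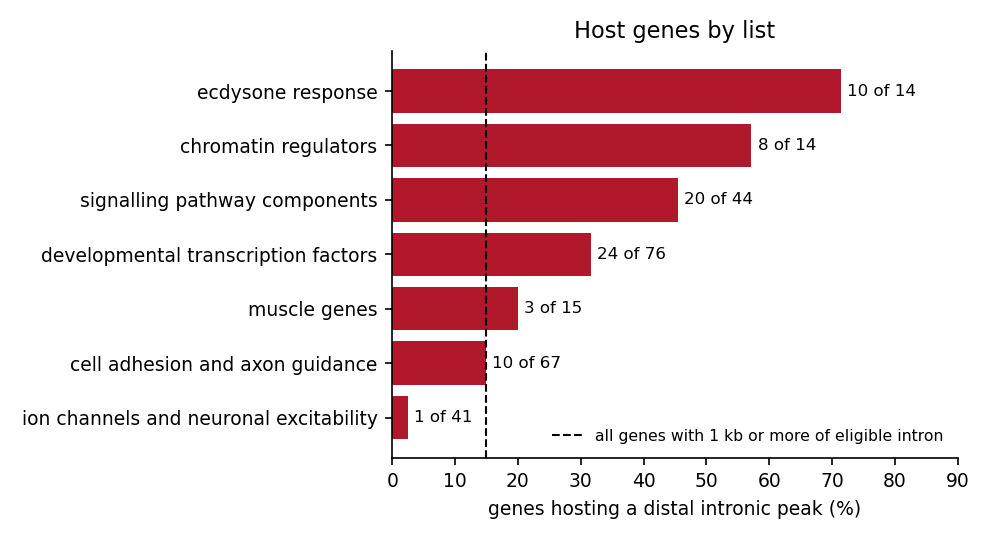
Share of genes with 1 kb or more of eligible intron that host a distal intronic peak (x axis, percent), for 7 gene lists, with counts beside the bars. The dashed line marks all 1932 such genes, at 14.96 percent, and the ecdysone response list is highest with 10 of 14. The lists were chosen with earlier results of these data known.

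Host genes often had a promoter peak as well. Of the 289 hosts, 106 (36.7%) had a promoter peak in the set, where 431 of all 1932 genes did (22.3%). Seen the other way, 24.6% of those 431 genes hosted a distal intronic peak, next to the background of 14.96 percent. In the same 4 groups of genes, shortest first, the share with a promoter peak was 38.5%, 43.2%, 33.3% and 36.7% in hosts, against 22.98%, 20.3%, 18.7% and 16.0% in the other genes.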

How the data were processed

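The deposited files are peak lists in build dm6, with the peak signal as the authors computed it. Which aligner, caller and signal scale were used is not given in the sources used here. Read depth is unknown, so no value carries a depth interval. Each replicate list holds 30000, 29898 and 30000 regions, weak background regions included. The pooled list and the dm3 lists were not used here. Signals were compared within a list, and between lists only as ranks. The 3 samples are 1 group and biological replicates, per the labels. No 2 replicates shared an identical region.

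Summits were region start plus the deposited offset. Genes and TSSs came from Ensembl release 115 (BDGP 6.54), and sequence from the RefSeq release 6 genome, the same assembly. No region ended past its chromosome. Classes of peak were compared by two-sided Fisher's exact tests, summit and flank windows (50 bp either side, flank centred at 300 bp) by exact McNemar or binomial tests, with Benjamini-Hochberg adjustment and 0.05 as the threshold. Analyses used Python 3.11.15, NumPy 2.4.6, SciPy 1.17.1 and matplotlib 3.10.9.

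The tests were tested on simulated data. Random positions that meet the rule showed the G+C test to be biased by exons in the flank, and with exon-free windows it called close to the share its threshold allows. Members, lists and motifs were chosen with earlier results of these data known. Named genes are the hosts of the 15 strongest peaks, up to 8 hosts with the most peaks (ties by strongest peak), and up to 3 hosts with the strongest peaks per list. The genes with a peak near a non-coding TSS, Lrch and the other hosts of printed sequences were named after their values were seen or by the rule for printed sequences. The result of 1 gene list is not reported here. Alternatives were other TSS distances and tables, stronger or replicated peaks, other windows, flanks, summit distances, word lengths, transcripts and leaving out each replicate.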

Additional observations from a re-analysis of the deposited data

How the results depend on the processing

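The share of peaks with less G+C at the summit kept its direction and passed under every alternative run for it (73.0 to 84.1%), as did the first-intron odds ratios (1.43 to 2.67). The number of distal intronic peaks was 254 at 5000 bp from a TSS, 208 among the stronger peaks of the set (those above the median rank), 221 in the consensus of 3 replicates, and 254 to 309 leaving out 1 replicate. The signal odds ratio against promoter peaks was 1.02 in the consensus and 0.700 to 0.971 leaving out 1 replicate; those settings keep peaks that are already among the strongest regions. Among the stronger peaks every peak exceeds the set median, so no value could be had. Replicate support against promoter peaks lost its call among the stronger peaks (0.853) and gave 0.590 to 0.800 leaving out 1 replicate, with the call lost without replicate 1. Against distal peaks outside coding genes it gained a call at 1000 bp from a TSS (0.743, Fisher's exact adjusted p = 0.0218) and was 0.572, not called, among the stronger peaks (adjusted p = 0.404).

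Motif calls were the least stable. Motifs called higher numbered 3 at 1000 bp from a TSS or with windows of 100 bp either side, 2 with TSSs of all genes or exon-free windows, 0 at 5000 bp, among the stronger peaks, in the consensus or with windows of 25 bp either side, and 0 to 1 leaving out 1 replicate. Motifs called lower numbered 0 at 5000 bp, among the stronger peaks and in the consensus, 1 with 25 bp windows, and 0 to 2 leaving out 1 replicate. Motifs differing from promoter peaks numbered 2 among the stronger peaks, 1 with 25 bp windows and 2 to 3 leaving out 1 replicate, and from other distal peaks 0 to 1. Words of 6 bases gave 4 calls from distal intronic peaks and 5 from promoter peaks, all 9 made of A and T. Words of promoter peaks gave 1 call among the stronger peaks and 0 to 1 leaving out 1 replicate. Several of these settings hold fewer peaks. With 1 group, samples could not be paired between groups. The strongest and weakest regions came from the same replicate lists, and no test paired by replicate was run on them.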
